A study of Mus musculus with 2 samples.

Results

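A population of resting CD8 T cells from MC38 tumours was chosen by its transcripts, and 1801 of 17977 deposited cell barcodes belonged to it. A member had at least 500 genes and a mitochondrial share under 10%, at least 1 unique molecular identifier (UMI, a count of 1 captured RNA molecule) of a CD3 gene (Cd3d, Cd3e or Cd3g) and of a CD8 gene (Cd8a or Cd8b1), and no UMI of the division genes Mki67 and Top2a. It also had to carry at least 3 of 5 genes, namely Tnfsf8, Ccr2, Ly6c2, Lilrb4a and Treml2. These 5 genes were chosen with earlier results of the same libraries known, so their own levels below are a description of the choice. Of 15516 barcodes past the first filters, 15065 carried CD3 and CD8 transcript, and 6409 of those had no Mki67 or Top2a UMI and are called resting here. The control library held 821 members and the NK-depleted library, called the depleted library below, 980. The 2651 and 1957 resting barcodes outside the rule are called the others.

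The series asked whether natural killer (NK) cells shape what CD8 T cells become in a tumour. MC38, a mouse colon carcinoma line, was grown in mice labelled wild type, and tumours were taken on day 9, minced and digested with collagenase. Live CD8+ T cells were sorted and made into 1 droplet library per group with the 10x 5′ V2 chemistry. The control mice are labelled as given PBS, although the library name carries the abbreviation Iso, and the other mice received an antibody to NK1.1, a surface protein of NK cells, natural killer T cells and some activated T cells. The number of mice per library and whether they were pooled are not given in the sources used here.

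Each group is a single library with no replicate, so no p-value is given anywhere and a difference between the libraries cannot be told apart from a difference between animals, sorts or preparations. Levels are UMIs summed over all barcodes of a population and divided by its total (CPM, counts per 1000000 UMIs), and shares and ratios carry exact 95% intervals that cover counting error only.

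CD8 T cells recognise peptides on MHC class I and, once activated, kill with granzymes and perforin. In tumours they range from memory-like cells, which keep lymph node homing receptors and the factor Tcf7, to effector and exhausted cells, which carry granzymes and inhibitory receptors. Tnfsf8 encodes CD30 ligand, a TNF family protein of activated T cells. Ccr2 is the receptor for the monocyte chemokine Ccl2. Ly6c2 encodes the surface antigen Ly6C, which marks many effector and memory CD8 T cells of C57BL/6-type mice as well as monocytes. Lilrb4a encodes gp49B, an inhibitory immunoglobulin-like receptor, and Treml2 a receptor of the TREM family found on lymphocytes and myeloid cells.

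The promoters of 3 of the rule's genes are shown because the population is defined by their transcripts. The rule genes lie on different chromosomes. In GRCm38 coordinates, Tnfsf8 spans chromosome 4, 63831308 to 63861347, Ccr2 chromosome 9, 124101950 to 124113557, Ly6c2 chromosome 15, 75108158 to 75111970, Lilrb4a chromosome 10, 51490956 to 51496611, and Treml2 chromosome 17, 48299498 to 48312533, all annotated as protein coding. Each window holds 250 bases before and 50 after the RefSeq start (RefSeq, GRCm38.p6), reads 5′ to 3′ on the gene's strand, and has motif matches in capitals. Tnfsf8 is chr4:63861235-63861534 on the minus strand, Ccr2 is chr9:124101933-124102232 on the plus strand, and Ly6c2 is chr15:75111922-75112221 on the minus strand. Of 12 genes looked up, 10 had a promoter in the table, and Lilrb4a and Treml2 are named only.
Tnfsf8 promoter: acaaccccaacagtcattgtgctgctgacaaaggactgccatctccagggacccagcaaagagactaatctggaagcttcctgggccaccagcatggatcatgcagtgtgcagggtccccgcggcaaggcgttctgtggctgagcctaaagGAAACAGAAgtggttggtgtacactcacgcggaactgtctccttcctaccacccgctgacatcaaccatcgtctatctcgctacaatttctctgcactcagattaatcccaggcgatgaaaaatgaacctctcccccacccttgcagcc
Ccr2 promoter: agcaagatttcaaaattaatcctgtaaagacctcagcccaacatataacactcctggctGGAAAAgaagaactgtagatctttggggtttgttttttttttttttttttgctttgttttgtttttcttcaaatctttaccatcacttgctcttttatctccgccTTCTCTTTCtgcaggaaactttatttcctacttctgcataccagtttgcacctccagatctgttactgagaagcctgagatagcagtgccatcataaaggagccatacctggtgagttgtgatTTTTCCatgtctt
Ly6c2 promoter: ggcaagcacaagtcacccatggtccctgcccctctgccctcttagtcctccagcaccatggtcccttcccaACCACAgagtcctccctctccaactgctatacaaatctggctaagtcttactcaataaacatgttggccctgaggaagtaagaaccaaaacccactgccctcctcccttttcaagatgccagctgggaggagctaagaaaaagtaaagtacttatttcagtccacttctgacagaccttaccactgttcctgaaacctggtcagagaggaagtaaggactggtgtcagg

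Each window was searched on both strands for 4 motifs. These were TGTGGT (the core bound by RUNX factors), CTTTGA (TCF and LEF factors), GAAANNGAA (a pair of half-sites of the interferon response element) and GGAAAA (NFAT). The Tnfsf8 window held 1 GAAANNGAA. The Ccr2 window held 1 GAAANNGAA and 2 GGAAAA, and the Ly6c2 window held 1 TGTGGT. None of these matches overlapped another. The letters are common, since 16.9% of 27025 promoters hold TGTGGT, 16.2% CTTTGA, 8.57% GAAANNGAA and 23.6% GGAAAA, so a match is a description of the sequence and not a binding site.

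Over all barcodes the control library totalled 108106687 UMIs and the depleted library 128853437. Members were deeper than the others, with medians of 10798 against 8864 UMIs per barcode in the control library and 10298.5 against 8294 in the depleted library. They summed to 10699968 and 11412781 UMIs. A total of 391 barcode sequences occurred in both libraries, among them 6 control and 4 depleted members. Barcodes with at least 2 UMIs of 30 markers of myeloid, dendritic, plasmacytoid, neutrophil or B cells made up 8.89% and 7.24% of members and 9.81% and 6.34% of the others. No doublet caller was run, and several results are also given without these barcodes.

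The 5 rule genes selected unequally. Ly6c2 was detected in 94.9% of resting control barcodes and 98.1% of resting depleted barcodes, so the rule amounted to at least 2 of the other 4 genes. Ly6c2 stood at 3669 CPM in members and 3127 CPM in the others of the control library, and at 4072 and 3134 CPM in the depleted library. Tnfsf8 stood at 55.4 and 8.39 CPM in the control library and at 79.6 and 16.3 CPM in the depleted library. Ccr2 stood at 169.6 and 59.7 CPM, then 145 and 62.1 CPM. Lilrb4a and Treml2 showed gaps of a like kind, with Lilrb4a at 116 against 41.7 CPM and 137 against 41.5 CPM. Treml2 stood at 77.9 against 15.8 CPM and 82.6 against 18.7 CPM. Exactly 2 of the 5 genes were found in 38.7% and 36.4% of resting barcodes, just outside the rule, and exactly 3 in 18.7% and 23.5%, just inside it.

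**Figure D1:**
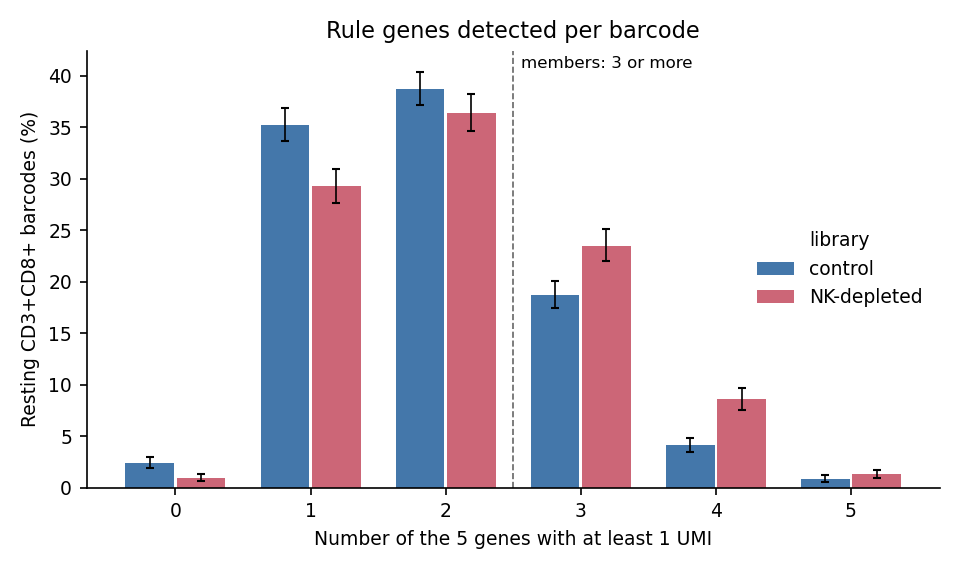
Share of resting CD3+CD8+ barcodes (%, y axis) by the number of the 5 rule genes with at least 1 UMI (x axis), for the control library (blue) and the NK-depleted library (red), with exact 95% binomial intervals for counting error. Members lie right of the dashed line, and most of them carry exactly 3 genes (18.7% and 23.5% of resting barcodes).

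Members were 23.6% of resting CD8 T cells in the control library (95% interval 22.2 to 25.1%) and 33.4% in the depleted library (31.7 to 35.1%). As a share of all CD3+CD8+ barcodes they were 11.9% (11.1 to 12.7%) and 12.004% (11.3 to 12.7%), since only 35.98% of depleted CD8 T cells were resting against 50.3% in the control library. Of all members, 54.4% came from the depleted library. The depleted share was thus higher among resting barcodes, while the shares of all CD3+CD8+ barcodes had overlapping intervals. Each barcode was then thinned to 5500 UMIs, with 655 control and 780 depleted barcodes too shallow to use, and the rule was applied again. Among barcodes that were resting at full depth, the shares of members were 13.4% (12.2 to 14.7%) and 21.2% (19.6 to 22.9%). Where resting was also called anew from the thinned counts, which let in barcodes whose Mki67 or Top2a UMIs were lost, they were 12.7% and 20.97%. Of all CD3+CD8+ barcodes, thinned members that were resting at full depth made up 6.45% (5.86 to 7.09%) and 7.03% (6.46 to 7.64%), again with overlapping intervals. Where resting was called anew from the thinned counts, they made up 7.96% (7.30 to 8.66%) and 10.2% (9.50 to 10.9%), and the intervals did not overlap. At least 3 of the 5 genes were also found in 4 of 17 and 2 of 10 CD3-negative barcodes with plasmacytoid dendritic cell transcripts, a cell type that carries Ly6c2 and Ccr2 itself and so gives no background level.

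The label also names Ms4a4c, a tetraspan membrane protein of lymphocytes, and Bcl2, the survival protein that blocks apoptosis, neither of which the rule used. Bcl2 stood at 443 CPM in members and 319 CPM in the others of the control library, and at 575 and 396 CPM in the depleted library. Members were higher in both, by 1.39-fold (1.34 to 1.44) and 1.45-fold (1.41 to 1.505). Ms4a4c stood at 296 and 257 CPM, 1.15-fold higher (1.104 to 1.20), in the control library and at 428 and 292 CPM, 1.46-fold higher (1.41 to 1.52), in the depleted library. In members and others as called at full depth and then thinned to 5500 UMIs, Bcl2 was detected in 79.3% of 776 control members against 63.6% of 2221 others, and in 86.5% of 913 against 70.1% of 1532 in the depleted library. Unthinned, the shares were 89.0% against 71.6% and 92.7% against 76.0%. In plasmacytoid barcodes of those libraries, thinned to the same depth, Bcl2 was found in 3.12% of 32 and 7.14% of 14. These sets are larger than the 17 and 10 barcodes of full depth named above. Whether these values are a background level was not tested. Both label genes went with the rule, Ms4a4c only weakly in the control library. The label was chosen with earlier results of these libraries known, so this too is a description. The rule itself asked for CD3 and CD8 transcript, so the Cd8a levels of 771 and 627 CPM in members are a description.

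The members were not of 1 kind. Over barcodes resting at full depth, thinned to 5500 UMIs and without those carrying UMIs of other lineages, Treml2 was detected in 39.1% of control barcodes with Tnfsf8 and in 11.2% of those without it. The shares were 35.8% and 15.8% in the depleted library. Ccr2 went the other way. It was found in 13.6% of control barcodes with Tnfsf8 and 24.9% of those without, and in 16% and 23.9% in the depleted library. Treml2 was therefore found more often, and Ccr2 less often, in barcodes with Tnfsf8 than in those without it, in each library. Lilrb4a was found in 27.5% of control barcodes with Ccr2 against 22.4% without, and in 32.9% against 24.1% in the depleted library. With Tnfsf8 it was found less often in the control library, at 18.5% against 24.1%, and more often in the depleted library, at 29.9% against 25.2%.

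The commonest set of genes among control members was Ccr2, Ly6c2 and Lilrb4a without the rest, in 294 barcodes (35.8%). Next came Tnfsf8, Ly6c2 and Treml2 without the rest, in 119 (14.5%). These sets held 221 (22.6%) and 164 (16.7%) members of the depleted library. They are called Ccr2-Lilrb4a members and Tnfsf8-Treml2 members below, and a comparison of them uses no gene of the rule. The sets were picked after their values were seen, so the comparison is a description.

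Tnfsf8-Treml2 members had the higher levels of several genes known from lymph node homing and memory. Tcf7, the factor of memory and stem-like T cells, which lies at chromosome 11, 52252371 to 52283014, stood at 339 CPM in control Tnfsf8-Treml2 members, 43.5 CPM in Ccr2-Lilrb4a members and 85.0 CPM in the others. In the depleted library it stood at 221, 24.9 and 91.9 CPM. Ccr2-Lilrb4a members thus held 0.128 (0.105 to 0.155) and 0.113 (0.0842 to 0.149) of the Tcf7 level of Tnfsf8-Treml2 members, and in both libraries the others lay between. S1pr1, the receptor for exit from tissue, stood at 223 against 27.2 CPM and at 143 against 27.05 CPM. Lef1, a partner of Tcf7, stood at 186 against 49.7 CPM and 142 against 50.7 CPM. Ccr7, the chemokine receptor for lymph node entry, stood at 214 against 18.8 CPM in the control library, and in the depleted library at 0.0924 of the Tnfsf8-Treml2 level (0.0631 to 0.132). Without barcodes of other lineages the control values of Ccr7 were 169 and 9.24 CPM, a ratio of 0.0546 (0.0352 to 0.0818) in place of 0.0878. Bcl2 was also higher in Tnfsf8-Treml2 members, by less, at 498 against 395 CPM and 649 against 400.2 CPM.

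Ccr2-Lilrb4a members had the higher levels of granzyme, Ifng and inhibitory receptor genes. Gzmb, the main granzyme of effector cells, stood at 3053 CPM in control Ccr2-Lilrb4a members and 460.0 CPM in Tnfsf8-Treml2 members, with the others at 1731 CPM. In the depleted library it stood at 3854, 811 and 2207 CPM, so that the one kind lay above the others and the other kind below them. Gzma stood at 419 against 78.9 CPM and 852 against 145 CPM, and Gzmk at 200.8 against 14.8 CPM and 96.35 against 3.56 CPM. Without barcodes of other lineages the control ratio of Gzmk was 20.999 (11.9 to 40.9) in place of 13.5. Ifng, the cytokine interferon gamma, stood at 536 against 45.2 CPM and 373 against 42.7 CPM. The inhibitory receptor genes were also higher in Ccr2-Lilrb4a than in Tnfsf8-Treml2 members. Pdcd1 (PD-1) stood at 224 against 38.45 CPM and 226 against 24.3 CPM, Lag3 at 327 against 31.7 CPM and 313 against 46.2 CPM, and Havcr2 (TIM-3) at 98.5 against 10.1 CPM and 191 against 14.8 CPM. Not all of these lay above the others. In the others Lag3 stood at 439 and 328 CPM, above each kind. Havcr2 stood there at 115 and 135 CPM and Pdcd1 at 215 and 206 CPM. Cxcr6, a receptor of tissue-lodged T cells, stood at 531 against 62.7 CPM and 535 against 53.3 CPM.

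Other genes separated the kinds less, or in 1 library more than the other. Ms4a4c was slightly higher in Ccr2-Lilrb4a members, at 278 against 216 CPM and 410.3 against 333 CPM. Il7r, the interleukin 7 receptor, stood at 156 against 386 CPM in the control library and at 286 against 327 CPM in the depleted library. Tox, a factor of exhausted cells, stood at 82.0 against 37.1 CPM in the control library and at 26.2 against 21.3 CPM in the depleted library, where the interval of the ratio (0.802 to 1.91) included 1. Gzmf stood at 30.03 against 8.77 CPM in the control library and 1288 against 273 CPM in the depleted library. Without the barcodes carrying UMIs of other lineages (278 and 106 control, 206 and 160 depleted members), the ratio for Tcf7 was 0.123 and 0.118 and that for Gzmb 6.76 and 4.43, so both gaps were as wide.

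**Figure D2:**
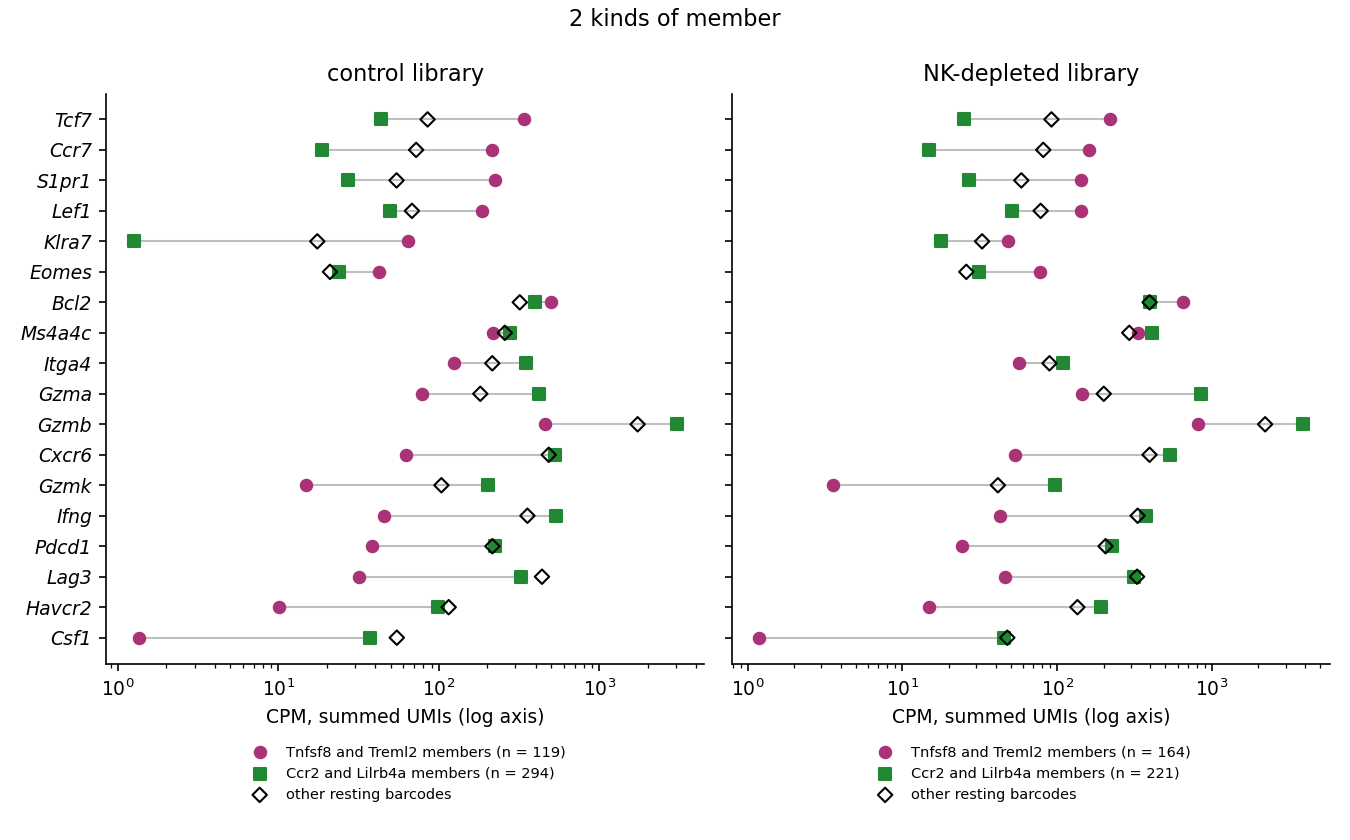
Level (CPM from summed UMIs, log x axis) of 18 genes (y axis) in members with Tnfsf8, Ly6c2 and Treml2 only (purple circles), members with Ccr2, Ly6c2 and Lilrb4a only (green squares) and resting non-members (open black diamonds), for the control library (left) and the NK-depleted library (right). Tcf7 stood at 339 and 43.5 CPM in the control library and Gzmb at 460.0 and 3053 CPM, with non-members between them in both cases.

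Each rule gene could also be taken alone, over the same thinned resting barcodes, whether members or not. Tcf7 stood at 292 CPM in control barcodes with a Tnfsf8 UMI (n = 243) and 94.97 CPM in those without, and at 179 and 96.3 CPM in the depleted library (n = 425). With and without Treml2 it stood at 262 and 88.96 CPM and at 199 and 90.8 CPM. Barcodes with Ccr2 had less, at 72.8 against 125.2 CPM and 49.9 against 129.8 CPM. With Lilrb4a, Tcf7 stood at 63.0 against 128 CPM in the control library and at 85.7 against 121 CPM in the depleted library, a smaller gap there. Ccr7 had the same order, at 141 against 47.1 CPM with and without Tnfsf8 in the control library and at 28.7 against 64.1 CPM with and without Ccr2. Gzma followed Ccr2, at 516 against 124 CPM and 669.9 against 150.5 CPM. Klrg1, a receptor of short-lived effector cells, did as well, at 5.62 against 1.149 CPM and 5.35 against 1.96 CPM, both low. Bcl2 followed Lilrb4a, at 532 against 359 CPM and 618 against 440.3 CPM, and Tnfsf8, at 518 against 388 CPM and 678 against 443 CPM. It was also higher with Treml2, at 486 against 386 CPM and 620 against 454 CPM. With and without Ly6c2 it stood at 413 and 192 CPM and at 491 and 292 CPM. With Ccr2 it was lower, at 363 against 411 CPM and 451 against 497 CPM.

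Taken as 1 population, members were set beside the others within each library. Of 5716 genes at 20 CPM or more, 20 (0.35%) were at least 1.5-fold higher in members in both libraries, and 60 (1.05%) were at least 1.5-fold lower. In the control library alone 62 were higher and 117 lower, and in the depleted library alone 44 and 93. All genes measured had a median log2 ratio of -0.01 in each library. The levels of members as a whole mix the unlike kinds described above, and members were also the deeper barcodes. With the others weighted to the members' depth, 63 genes were higher and 105 lower.

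The higher group held several NK receptor genes. Klra1, Klra3, Klra6 and Klra7, which encode Ly49 receptors for MHC class I, were all among the genes named. They are close copies, with 88.04% (Klra1), 81.4% (Klra3) and 83.2% (Klra6) identity to Klra7 over the aligned coding bases, so the split of reads among them is uncertain and they do not count as separate results. Klra7 stood at 35.7 and 17.5 CPM in the control library and 55.8 and 32.7 CPM in the depleted library. Klra1 was lower in level, at 13.3 and 3.98 CPM and at 21.9 and 9.26 CPM. In the control library the Klra7 transcript was held by Tnfsf8-Treml2 members at 64.1 CPM and by Ccr2-Lilrb4a members at 1.251 CPM. In the depleted library these stood closer, at 48.0 and 17.75 CPM. Few barcodes held Klra7. With the rule and resting called anew on thinned barcodes, it was found in 6.69% of control members (4.65 to 9.27%). The share was 3.51% in the control others (2.92 to 4.19%). In the depleted library the shares were 9.13% (7.16 to 11.4%) and 7.13% (6.2 to 8.14%), with overlapping intervals.

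Transcription factor genes were also in the higher group. Eomes, a T-box factor of memory and NK cells, stood at 39.3 and 20.9 CPM in the control library and 53.6 and 25.9 CPM in the depleted library, 1.87-fold (1.65 to 2.13) and 2.07-fold (1.83 to 2.34). Myc, a driver of growth after activation, stood at 48.2 and 23.9 CPM, then 53.4 and 32.0 CPM, although barcodes with division transcripts had been left out. Members outside the Ccr2-Lilrb4a and Tnfsf8-Treml2 sets also held them, at 46.7 CPM of Eomes and 57.6 CPM of Myc in the control library. Tnfsf8-Treml2 members held 42.5 CPM of Eomes and 49.2 CPM of Myc there, and 77.04 and 53.9 CPM in the depleted library. Ccr2-Lilrb4a members, the commonest set, lay nearer to the others. They held 23.8 CPM of Eomes and 30.03 CPM of Myc in the control library, and 31.3 and 35.1 CPM in the depleted library.

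Surface and signalling genes made up the rest. Lilr4b, the neighbour and near copy of Lilrb4a, stood at 89.3 and 51.8 CPM and at 97.2 and 38.4 CPM. The coding sequences of Lilrb4a and Lilr4b are 96.03% identical over the aligned bases, so reads of the pair may be split between them, and the Lilr4b values are uncertain as a separate result. When Lilrb4a was left out of the rule, the control log2 ratio of Lilr4b was -0.11. Samd3 stood at 40.1 and 21.9 CPM and at 43.8 and 24.9 CPM. Gpr18, a G protein-coupled receptor of lymphocytes, stood at 87.5 and 56.3 CPM and at 97.4 and 60.2 CPM. F2rl1, the protease-activated receptor PAR-2, stood at 19.7 and 9.88 CPM and at 22.9 and 13.3 CPM. Fam241a and Rnf130, a ubiquitin ligase gene, were higher by 1.53-fold to 1.64-fold. Ccr9, a gut-homing receptor that plasmacytoid dendritic cells also carry, stood at 60.7 and 23.3 CPM in the control library, but at 10.4 and 8.76 CPM without barcodes holding UMIs of other lineages, a ratio of 1.19.

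The lower group held granzymes of the chromosome 14 cluster. Gzmf stood at 48.2 CPM in members and 192 CPM in the others of the control library, 0.251 of their level (0.229 to 0.275), and at 516 and 1258 CPM in the depleted library, 0.410 of it (0.398 to 0.422). Gzmd stood at 2.52 and 24.7 CPM, then 31.0 and 122 CPM, and Gzme at 3.36 and 19.4 CPM, then 27.95 and 72.4 CPM. These genes are close copies, with 85.4% (Gzmd) and 86.2% (Gzme) identity to Gzmf over the aligned coding bases, and their split is uncertain. Serpinb9b, a serpin of the family that guards cells from their own granule proteases, stood at 1.96 and 18.6 CPM, then 12.8 and 29.3 CPM. The kinds of member did not share the low Gzmf level in the depleted library. Ccr2-Lilrb4a members stood there at 1288 CPM of Gzmf, beside 1258 CPM in the others, and Tnfsf8-Treml2 members at 273 CPM. In the control library both kinds lay below the others, at 30.03 and 8.77 CPM of Gzmf. Gzmb itself did not differ over all members, at 1714 and 1731 CPM and at 2128 and 2207 CPM. Members outside the Ccr2-Lilrb4a and Tnfsf8-Treml2 sets, 408 and 595 barcodes, held 1311 and 1875 CPM of Gzmb, between the high and the low kind. They include members with more than 3 rule genes, which can carry all genes of a set.

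Other genes stood lower beside them. Rgs16, a brake on G protein signalling, stood at 85.6 and 248 CPM and at 90.9 and 206 CPM. Csf1, the macrophage growth factor, stood at 19.4 and 54.6 CPM and at 18.0 and 47.6 CPM. Tnfrsf4 (OX40, a costimulatory receptor) stood at 32.1 and 94.4 CPM and at 44.8 and 108 CPM. Nrgn, a calmodulin-binding protein, stood at 20.6 and 74.6 CPM and at 12.97 and 39.6 CPM. Nrp1, a coreceptor for semaphorins and VEGF, stood at 27.0 and 65.4 CPM and at 12.1 and 38.3 CPM. Ifitm1, an interferon-induced membrane protein, stood at 219 and 506 CPM and at 459 and 1073 CPM. The remaining 4 named genes, Serpine2, Tnip3, Gpm6b and Neb, held between 0.259 and 0.451 of the others' level.

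**Figure D3:**
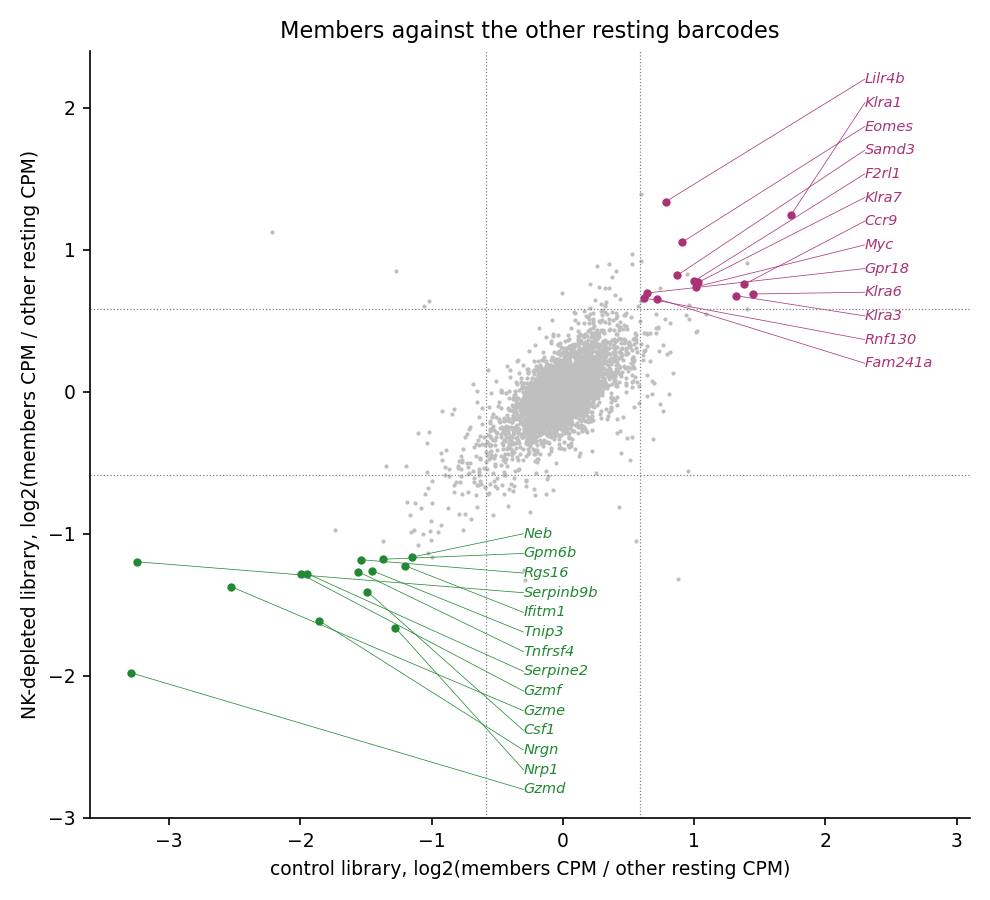
Log2 ratio of members to the other resting barcodes in the control library (x axis) and the NK-depleted library (y axis), 1 point per gene tested (5716 genes), with dotted lines at 1.5-fold. The 13 genes named as higher are purple and the 14 named as lower are green, with Klra1 at the upper right and Gzmd at the lower left.

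Lists of genes with a shared role were counted at a smaller difference, at least 25% higher or 20% lower, since each list holds few genes. Of 7596 genes at 10 CPM or more, 2.17% were that much higher in both libraries and 3.34% that much lower. Of 18 measured stem and memory genes, 8 were higher and 0 lower. Their median log2 ratio was 0.62 (control) and 0.30 (depleted). They included Lef1, Id3, Bach2, Eomes, Xcl1, Il6ra and Satb1. Satb1, a chromatin organiser, stood at 311 and 207 CPM and at 372 and 264 CPM, and Xcl1, a chemokine for dendritic cells, at 138 and 84.5 CPM and at 135 and 98.5 CPM. Tcf7 stood at 149 and 85.0 CPM in the control library, 1.76-fold (1.65 to 1.88), and at 112 and 91.9 CPM in the depleted library, 1.22-fold (1.13 to 1.31), short of the fold there.

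Inhibitory receptor and exhaustion genes leaned lower, with 7 of 19 lower, 2 higher and medians of -0.28 and -0.17. Lag3 stood at 204 and 439 CPM in the control library and 155 and 328 CPM in the depleted library. Havcr2 stood at 51.3 and 115 CPM, then 74.0 and 135 CPM, and Pdcd1 at 127 and 215 CPM, then 105 and 206 CPM. The higher members of that list were Eomes and Btla, an inhibitory receptor of resting lymphocytes. Of 19 cytotoxic granule genes, 8 were lower and 2, Gzma and Gzmm, higher, with medians of -0.33 and -0.20. Gzma stood at 260.5 and 181 CPM, then 374 and 200.1 CPM, and the pore-forming Prf1 at 152 and 248 CPM, then 197 and 368 CPM. The circulating effector list held 5 lower and 1 higher of 19 (-0.46 and -0.26), with Cx3cr1, the fractalkine receptor, at 27.6 and 58.4 CPM and at 25.1 and 44.3 CPM.

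Interferon-response genes leaned higher in members. Of 38 type I genes, 6 were higher and 0 lower in both libraries, with medians of 0.22 and 0.40. Oasl2, an antiviral synthetase-like protein, stood at 126 and 87.5 CPM and at 107 and 54.6 CPM, and Usp18, which removes Isg15 from proteins, at 213 and 169 CPM and at 234 and 151 CPM. Of 29 interferon gamma genes, 4 were higher and 0 lower (0.13 and 0.26). Cxcl10, a chemokine that draws Cxcr3-bearing cells, stood at 149 and 98.8 CPM in the control library, 1.51-fold (1.42 to 1.61), and at 195 and 74.4 CPM in the depleted library, 2.63-fold (2.45 to 2.81). Without barcodes holding UMIs of other lineages these ratios were 1.52 and 2.44. The Ifitm list, also induced by interferon, had 2 lower and 1 higher of 4, so it did not share that direction.

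Of 26 glycolysis genes 0 were higher and 7 lower, with medians of -0.35 and -0.22. The enzyme Tpi1 stood at 97.3 and 167 CPM and at 179.7 and 246 CPM. Of 14 NK receptor genes 5 were higher and 0 lower, all of them Klra genes and so not separate results, and the medians were 0.21 and -0.04. Of 34 T cell transcription factors 5 were higher and 9 lower, of 15 tissue residency genes 3 and 4, of 13 costimulatory receptors 0 and 3, and of 22 migration genes 3 (Ccr9 and Cxcr4 among them) and 2 (Cxcr6 and Cx3cr1). The Bcl2 family had 1 higher (Bcl2) and 3 lower of 18. Bcl2a1d, a survival gene of activated cells, stood at 154 and 273 CPM and at 112 and 183 CPM. Of the Ly6 and Ms4a list 0 of 8 passed the fold in both libraries, and likewise 0 of 5 TNF ligands, 0 of 26 oxidative phosphorylation genes, 0 of 19 heat shock genes and 0 of 18 quiescence genes.

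The remaining lists had few calls. Cytokine receptors had 3 higher and 2 lower of 25, cytokines and chemokines 2 and 2 of 16, IL-2 response genes 3 and 5 of 25, early T cell receptor response genes 3 and 3 of 23, and TGF beta response genes 2 and 1 of 12. The S100 and annexin list had 1 and 4 of 20. Its higher member in the control library, the neutrophil gene S100a9, stood at 14.5 CPM in members and is itself 1 of the 30 markers of other lineages. Metallothionein and ATF4 genes had 0 and 2 of 13, S phase genes 0 and 1 of 19, G2 and M phase genes 0 and 2 of 5, innate genes 2 and 1 of 12, and the Lilrb and Treml list 1 and 0 of 4.

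**Figure D4:**
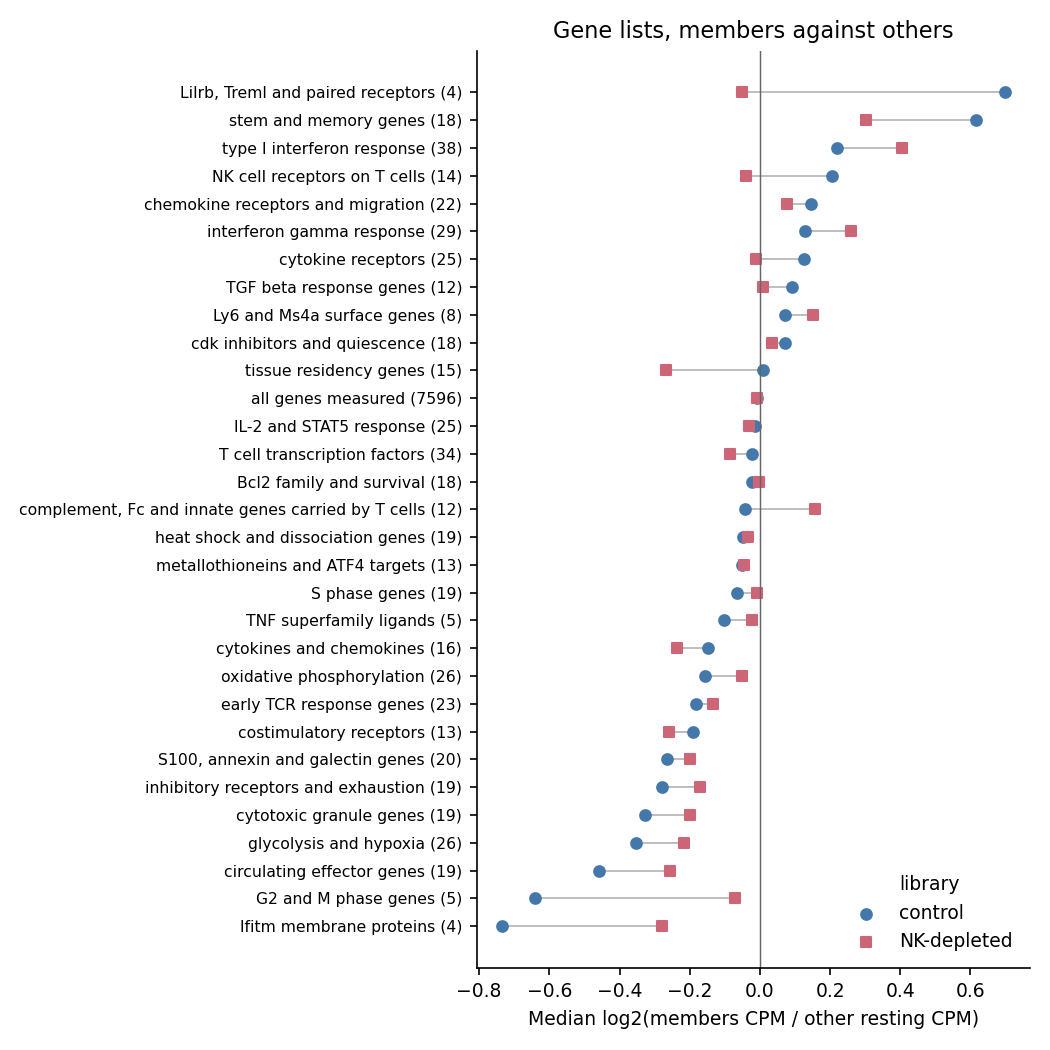
Median log2 ratio of members to the other resting barcodes (x axis) for each gene list (y axis, number of measured genes in brackets), in the control library (blue circles) and the NK-depleted library (red squares). Stem and memory genes stood at 0.62 and 0.30 and circulating effector genes at -0.46 and -0.26, beside -0.01 for all genes measured in each library.

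Levels also went with the number of rule genes found after thinning to 5500 UMIs, among barcodes resting at full depth. Eomes stood at 18.7, 19.9, 28.4, 39.9 and 69.9 CPM in control barcodes with 0, 1, 2, 3 and at least 4 rule genes, the first from 136 and the last from 52 barcodes. In the depleted library it stood at 5.19 (1 UMI), 23.5, 31.98, 69.2 and 79.2 CPM, so it was higher at each further gene in both libraries. Gzmf showed no such steps at the ends. In the control library it stood at 84.2 CPM with 0 rule genes, 198.9 with 1, 66.7 with 2, 10.4 with 3 and 3.497 with at least 4, the last from 1 UMI. The depleted values of Gzmf were 2140.3, 1324, 549, 162 and 245 CPM. At the edge of the rule, unthinned, Eomes stood at 25.5 CPM in control barcodes with exactly 2 genes and 35.1 CPM in those with exactly 3, and at 30.4 and 51.0 CPM in the depleted library. Gzmf stepped down there in the control library, from 134.7 to 33.09 CPM. In the depleted library it hardly did, at 692.5 and 652.4 CPM. Gzmd and Gzme differed little there too, at 42.78 and 36.52 CPM and at 39.79 and 37.996 CPM. Gzmc was higher with exactly 3 genes in that library, at 132.9 and 183.8 CPM. Among the 15 nearest neighbours of a member, found from 2000 variable genes that left out the rule's genes, 40.04% were members in the control library, where members were 23.65% of resting barcodes. In the depleted library the values were 48.65% and 33.37%. Members thus lay nearer to each other than their number alone gives, yet in each library most neighbours of a member were not members. Members were also the deeper barcodes, and the part of depth in these shares was not tested.

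Between the libraries, members of the depleted library held more RNA of the chromosome 14 granzymes and less of integrin alpha 4. Of 5541 genes at 20 CPM or more in 1 of the libraries, 66 (1.19%) were at least 1.5-fold higher in depleted members and 174 (3.14%) at least 1.5-fold lower, so the higher genes were 27.5% of the calls. The median log2 ratio of all genes was -0.10, and the balance depended on the scaling, with 48.2% of the calls higher under TMM factors and 47.7% under median-of-ratios factors. The others showed 35 (0.633%) higher and 151 (2.73%) lower genes of 5532. Of the members' higher calls 47.0% were past the fold in the others too, and of their lower calls 51.7%. Conversely, 94.3% and 57.6% of the others' higher and lower calls were past it in members. The same mice gave both populations, so these shares are not independent.

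Gzmf, at chromosome 14, 56205263 to 56211417, stood at 48.2 CPM in control members and 516 CPM in depleted members, 10.7-fold higher (9.78 to 11.7), against 6.55-fold in the others. Gzmc stood at 19.6 and 155 CPM, 7.91-fold (6.85 to 9.17), and 6.14-fold in the others. Gzmd differed by 12.3-fold (8.31 to 18.9) and Gzme by 8.31-fold (5.87 to 12.1), against 4.96-fold and 3.74-fold in the others, from control levels under 4 CPM. Whether members and others differ in these folds was not tested. Ifitm2 stood at 99.4 and 422 CPM, 4.24-fold (3.97 to 4.54), and 2.47-fold in the others. Mt1, a metal-binding metallothionein, stood at 14.02 and 42.3 CPM, Myo10, a myosin of cell protrusions, at 6.54 and 22.6 CPM, and AA467197 at 61.3 and 219 CPM.

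Itga4, the alpha 4 integrin subunit for binding to VCAM-1 (chromosome 2, 79255426 to 79333123), stood at 235 CPM in control members and 66.2 CPM in depleted members, 0.282 of the control level (0.260 to 0.306). The ratio was 0.415 in the others and 0.269 in members without other lineages. Tox stood at 66.4 and 20.9 CPM, 0.316 (0.271 to 0.366). Actn2, an actin cross-linker, stood at 21.6 and 4.03 CPM, and Car2, a carbonic anhydrase, at 54.3 and 16.6 CPM. Without other lineages the Actn2 ratio was 0.186 and the Car2 ratio 0.319. Ccr9 stood at 60.7 and 13.3 CPM and, without other lineages, at 10.4 and 2.26 CPM.

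The other named differences between the libraries moved with transcripts of other cells. Ly6d, Siglech, Ctsh, Cybb, Tcf4 and Mpeg1, all carried by plasmacytoid dendritic or myeloid cells, stood at 21.3 to 41.1 CPM in control members and at 2.63 to 10.3 CPM in depleted members. Siglech is 1 of the 30 markers that define barcodes of other lineages, so its near-zero level without them follows from leaving them out. The other 5 are not among those markers. Without those barcodes, Ly6d had no UMI in members of either library, and Ctsh, Cybb, Mpeg1 and Tcf4 stood at 0.761 to 7.83 CPM in control members and 0.0981 to 4.32 CPM in depleted members. H2-Ab1 and H2-Eb1, MHC class II genes, were the reverse, at 9.53 against 55.4 CPM and 17.0 against 50.5 CPM. H2-Ab1 is a marker of the filter, and H2-Eb1, which is not, stood at 1.31 against 1.275 CPM without those barcodes. Summed over its 12 markers, the plasmacytoid list stood at 1218 CPM in control members and 1148 CPM in the others, and at 780 and 757 CPM in the depleted library. Most of that sum was Bst2 (877 and 854 CPM in the control library) and Runx2 (120.0 and 157 CPM), which T cells carry too. Several markers with a narrower range were higher in control members than in the others. Siglech stood at 41.1 against 21.3 CPM, Ccr9 at 60.7 against 23.3 CPM and Ly6d at 21.3 against 11.6 CPM. Pacsin1 was lower, at 22.5 against 28.1 CPM, and Klk1 level, at 8.60 against 8.62 CPM. Barcodes with at least 2 UMIs of plasmacytoid markers were 5.36% of control members and 6.11% of the control others. In the depleted library Siglech stood at 8.94 against 13.2 CPM and Ly6d at 2.63 against 6.56 CPM, while Ccr9 was still higher in members, at 13.3 against 7.88 CPM. The dendritic list of 12 stood at 131 and 264 CPM, then at 293 and 191 CPM. The fibroblast list was at most 2.98 CPM, and the 14 monocyte and macrophage markers summed to 41.4 and 40.04 CPM in members.

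**Figure D5:**
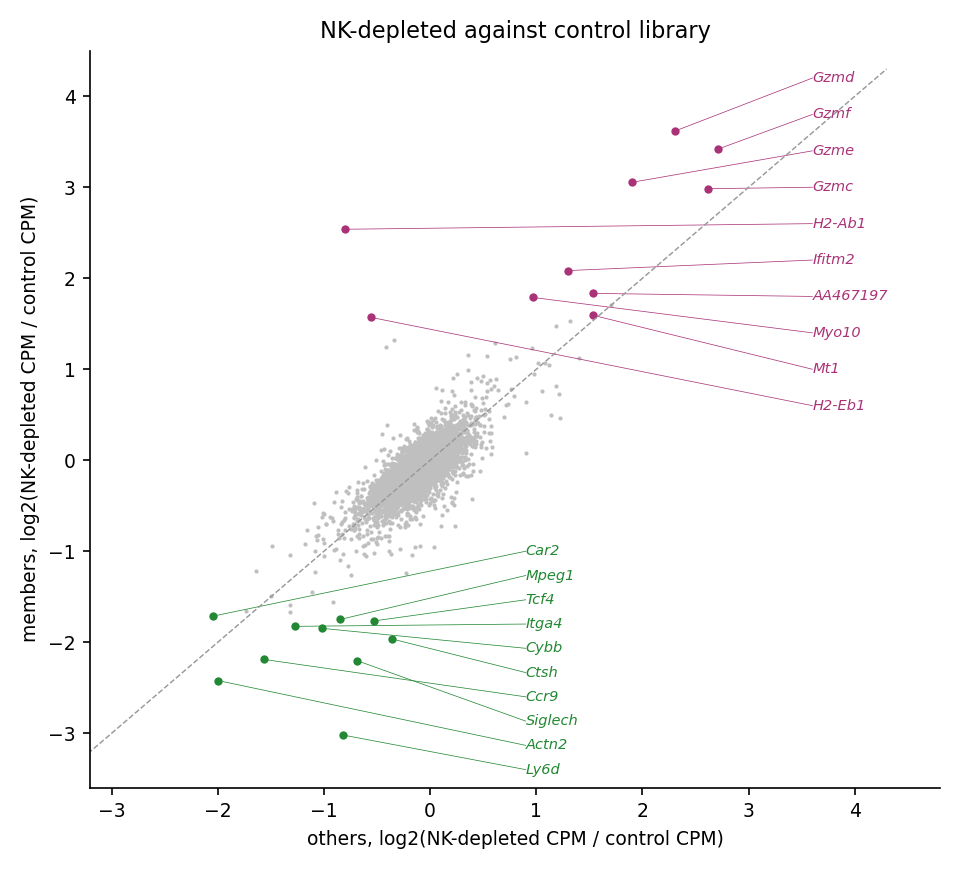
Log2 ratio of the NK-depleted to the control library in the others (x axis) and in members (y axis), 1 point per gene tested (5541 genes), with a dashed line where both ratios are equal. The 10 genes named as higher are purple and the 10 named as lower are green. Gzmd and Gzmf lie above the line at the top, and Ly6d and Siglech, carried by plasmacytoid dendritic cells, lie at the bottom.

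By list, members of the depleted library were lower in interferon-response genes. At the smaller difference used for lists, which 5.11% of 7596 genes reached in the higher direction and 18.7% in the lower, 27 of 38 type I interferon genes were lower and 0 higher, and their median log2 ratio was -0.45. Among the others 35 were lower, with a median of -0.71. Usp18 stood at 213 and 234 CPM and was not among the lower genes. Of 29 interferon gamma genes 14 were lower and 2 higher (median -0.30), with Iigp1 at 0.430 of the control level (0.397 to 0.466), while Cxcl10 was one of the higher genes, at 149 and 195 CPM. Of 26 glycolysis genes 14 were higher and 1 lower (0.36), of 19 granule genes 9 and 1 (0.31), and of 14 NK receptor genes 9 and 1 (0.45). In the others these medians were 0.31, 0.14 and 0.58.

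Stem and memory genes had 2 higher and 5 lower of 18 between the libraries. Tcf7 stood at 149 and 112 CPM, 0.747 of the control level (0.694 to 0.805). Bcl2 stood at 443 and 575 CPM, 1.30-fold higher (1.252 to 1.35), Ms4a4c at 296 and 428 CPM, 1.44-fold (1.38 to 1.51), and Eomes at 39.3 and 53.6 CPM, 1.37-fold (1.20 to 1.55). Pdcd1 stood at 127 and 105 CPM, Ifng at 367 and 253 CPM, Il7r at 267 and 275 CPM and Cd44, an adhesion receptor of activated cells, at 103 and 113 CPM. The mix of the kinds of member differed between the libraries, with 35.8% against 22.6% in the Ccr2-Lilrb4a set, and its part in these differences was not tested.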

How the data were processed

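RNA of sorted tumour CD8 T cells was measured in 2 droplet libraries, 1 per group. The authors deposited filtered UMI count matrices with 32285 genes and called barcodes, and per the file headers they come from Cell Ranger 6.1.2. The submitters' processing notes name the mm10 build and Seurat 4.0.6, with no settings stated. The counts are whole UMIs and were not normalized.

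Barcodes with at least 500 genes and a mitochondrial share under 10% were kept, and the rule was then applied. UMIs were summed per library and population and given as CPM. Ratios have exact conditional binomial 95% intervals and shares Clopper-Pearson ones, and both cover counting error only. A ratio against 0 used a floor of 3 UMIs per population. Genes were counted at 20 CPM and 1.5-fold, and members of 30 gene lists at 10 CPM and 25% higher or 20% lower, in the same direction in both libraries. Where stated, barcodes were thinned to 5500 UMIs without replacement. Resting barcodes were those of full depth unless said otherwise.

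The population, its genes, the lists and the thresholds were chosen with earlier results of these data known. Named genes were the first 14 higher and 14 lower by the smaller of the log2 ratios of the libraries, among those also past the fold at matched depth. Between libraries they were the first 10 each way past 1.5-fold whose interval lay wholly beyond 1.25-fold. The result for 1 of the genes so chosen is not reported here. Receptor segments, mitochondrial, ribosomal, haemoglobin and sex-linked genes, unnamed transcripts and the rule's genes were left out. Up to 4 genes per list and a few T cell genes were added, and further genes of the members' kinds were chosen after their values were seen.

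Alternatives were other rule thresholds, leaving out each rule gene, other filters, barcodes with 2 or more UMIs of other lineages or the deepest 5% removed, other comparison populations, TMM (edgeR 4.0.16) and median-of-ratios factors, means over cells and other CPM minimums. The calculation was checked on simulated counts. Coordinates come from GENCODE M21, which holds 32158 of the 32285 gene IDs. Python 3.11.15, numpy 2.4.6, scipy 1.17.1, pandas 2.3.3 and matplotlib 3.10.9 were used, with biopython 1.88 for coding sequence alignments.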

Additional observations from a re-analysis of the deposited data

Results flagged for a closer look

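Some genes stood on opposite sides of 1 in the libraries when members were set beside the others, and these differences were not tested. The log2 ratio of members to others in the control library was -1.02 for Cd74, -1.06 for H2-Aa, -2.22 for H2-Ab1 and -1.27 for H2-Eb1, all MHC class II genes, while each was above 0 in the NK-depleted library. Without barcodes holding UMIs of other lineages none of these 4 genes exceeded 5.79 CPM in members; H2-Ab1 is itself 1 of the markers that define those barcodes, the other 3 are not. Ly6d, a gene of plasmacytoid and B lineage cells, went the other way, with 0.88 in the control library and a value below 0 in the NK-depleted library, and had 0 UMIs in members of either library without those barcodes.

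The rule left out barcodes with division transcripts. Among those, at least 3 of the 5 genes were found in 39.98% of 5227 NK-depleted barcodes and 27.4% of 3429 control barcodes, and in 15.96% and 8.13% of barcodes that still held division transcripts at 5500 UMIs, so the gene set was not confined to resting cells.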

How the results depend on the processing

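No paired analysis was possible because each group is 1 library and the labels give no replicate numbers shared across groups. The share of members (23.6% control, 33.4% NK-depleted) became 62.4% and 69.8% with at least 2 of the 5 genes, 4.95% and 9.87% with at least 4, 12.7% and 20.97% with thinned barcodes, and 13.4% and 21.2% with thinned barcodes that were resting at full depth. It became 18.2% and 22.3% without Tnfsf8 in the rule, 12.6% and 22.2% without Ccr2, 5.01% and 9.87% without Ly6c2, 10.97% and 19.1% without Lilrb4a, 15.4% and 22.8% without Treml2, and 25.5% and 37.6% with dividing barcodes kept. The NK-depleted share was the higher under each of these settings. Counts of genes higher and lower in members (20 and 60) became 51 and 170 without Ccr2, 46 and 133 without Lilrb4a, 9 and 25 without Tnfsf8, 8 and 26 without Treml2, 134 and 401 against all other CD8 T cells, 63 and 105 at matched depth, 12 and 37 at 50 CPM, and 507 and 409 with no CPM minimum. The higher count alone moved to 41 with at least 2 genes, 10 without barcodes carrying S or G2 and M phase UMIs, and 13 with means over cells, and the lower count alone to 16 with dividing barcodes kept. Between libraries (66 and 174), the counts became 128 and 367 after thinning, 149 and 395 after thinning with resting called at full depth, 30 and 77 at 50 CPM, and 1244 and 1898 with no minimum. The higher count became 111 with at least 4 genes and 108 without Ly6c2, and the lower count 103 with TMM and 104 with median-of-ratios factors. The settings that kept at least 2 of the 4 genes other than Ly6c2, removed S or G2 and M phase UMIs or kept dividing barcodes, and thinning with resting called at full depth, were added after the data were seen.

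Direction turned for 10 genes and 1 list, and the cause was not tested. The Ccr9 log2 ratio of members to others turned to -0.53 (at least 4 genes), -0.83 (without Ccr2), -0.55 (without Ly6c2) and -1.38 (without Treml2) in the control library and to -0.94 after thinning and -1.16 after thinning with resting called at full depth in the NK-depleted library. Lilr4b turned to -0.11 without Lilrb4a. Between libraries, with at least 4 genes, without Ly6c2 and without Treml2 in turn, Ly6d turned to 0.44, 0.45 and 0.62, Siglech to 0.27, 0.29 and 0.45, Ctsh to 1.51, 1.52 and 0.00147, Cybb to 1.04, 1.05 and 0.67, and Mpeg1 to 1.18, 1.19 and 0.92. Tcf4 turned to 0.10 and 0.11 under the first and second of these. Without other lineages Siglech turned to 1.44, a value set by the floor at 0 UMIs, and H2-Eb1 to -0.034. H2-Eb1 turned to -0.60 without the deepest 5% and to -0.67, and H2-Ab1 to -0.35, with dividing barcodes kept. The Lilrb and Treml list turned to -0.74, -0.45, -0.74 and -0.45 in the control library with at least 4 genes or without Ccr2, Ly6c2 or Treml2, and to 0.055, 0.052 and 0.037 between libraries with at least 4 genes or without Ly6c2 or Treml2. Without turning, 624 values of named genes and 30 list medians moved by more than counting error or spread, and 903 and 275 moved by less.

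The rule genes other than Ly6c2 had a median of 0 or 1 UMI per member, so depth limits who is called a member. Genes under about 10 CPM rest on few UMIs.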

Other observations

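The T cell receptor beta chain V segment was read, with at least 1 UMI, in 39.1% of control members and 34.7% of the control others, and in 34.3% and 27.6% in the NK-depleted library. Of control members with a segment, 7.17% carried Trbv13-1, against 13.2% of the others, and in the NK-depleted library the values were 5.65% and 7.96%. Trbv26 stood at 3.12% and 5.77% in the control library and at 3.87% and 9.07% in the NK-depleted library. Trbv3 was the commonest segment of NK-depleted members, at 11.6% against 7.41% of the others. Segments were spread over many genes in both populations, and no test was made with 1 library per group.

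Members and others as called at full depth were thinned to 5500 UMIs per barcode and set beside plasmacytoid barcodes for some effector genes. Whether the plasmacytoid values are background was not tested. Gzmb was found in 77.6% of control members, 77.8% of the control others and 18.8% of 32 plasmacytoid barcodes, and in 87.5%, 84.4% and 64.3% of 14 in the NK-depleted library. Pdcd1 was found in 35.7%, 50.2% and 6.25%, and in 26.9%, 44.8% and 7.14%.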
